A study of Homo sapiens with 12 samples.

Results

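The 36 genes described here belong to the cell's responses to amino-acid shortage and to unfolded protein in the endoplasmic reticulum (ER). They form an ATF4 arm of 23 genes and an ER chaperone arm of 13 genes. They were chosen by name for their place in these pathways, with earlier results of these data known. Each was read by 1 probe set, the one for a single gene with the highest mean over the 12 arrays. All 36 were measured, among 19775 genes in all.

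All 4 lines go back to SKBR-3, human breast cancer cells with an amplified HER2 gene (ERBB2). SKR6CA is SKR6 after retroviral transduction with CAp65, a relA/p65 subunit of NF-kB that is active without a stimulus, and puromycin selection, and its control SKR6-Vector received the empty pQCXIP retrovirus and the same selection. SKR6LR is SKR6 grown for several months in lapatinib, an inhibitor of the HER2 and EGFR kinases, raised from 0.2 to 5.0 µM, and its control is SKR6, the untransduced fraction of SKBR-3 sorted for high HER2. All 4 lines therefore share the sort, and the 2 transduced lines share the retrovirus and the puromycin selection. Each line gave 3 biological replicates with 1 array each, taken after 48 hours in medium with serum. The labels place a line called SKLR in 0.2 µM lapatinib during maintenance, a name that differs from SKR6LR, so whether the SKR6LR cultures held the drug at harvest cannot be told from them. SKR6LR is a single resistant population, and nothing says that SKR6CA or SKR6-Vector was derived more than once.

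When amino acids run short or unfolded protein fills the ER, stress kinases phosphorylate the translation factor eIF2. General protein synthesis then falls while translation of ATF4 rises, and ATF4 switches on genes for amino-acid uptake and synthesis together with feedback genes that end the response. In the ER, the sensors ERN1 (IRE1), ATF6 and EIF2AK3 (PERK) detect unfolded protein; ERN1 splices the XBP1 message, and the spliced XBP1 and cleaved ATF6 proteins raise chaperones and the machinery that removes misfolded protein. Translation of ATF4, splicing of XBP1, cleavage of ATF6 and phosphorylation of eIF2 were not measured; the values below are RNA levels on a log2 scale.

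The SKR6LR arrays stood apart from the rest before any stress gene was considered. Over all genes they correlated with the arrays of other lines at 0.914 to 0.933, against 0.988 to 0.990 among the other lines. Their replicate SD was 0.209, against 0.107 in SKR6CA, 0.0965 in SKR6-Vector and 0.0958 in SKR6. As a check of RNA integrity, actin probe sets at the 3′ end exceeded those at the 5′ end by 2.32 in SKR6LR replicate 3 and by between 1.03 and 1.73 on the other 11 arrays. ERBB2 averaged 14.04 in SKR6CA and 13.92 in SKR6-Vector, and 12.45 in SKR6LR and 13.83 in SKR6. The mean of the 9 luminal markers was 11.49 to 11.70 on the SKR6LR arrays and 12.95 to 12.97 on the SKR6 arrays, and of these markers AGR2 (-7.08), SPDEF (-3.41), ERBB2, GRB7 and KRT19 were called lower in SKR6LR, KRT18 (0.63), KRT8 (0.45) and TFAP2C (0.36) were called higher, and EPCAM (0.11) was not called. Of the markers of other cell types, CDH5 averaged 8.98 in SKR6LR and 5.14 in SKR6, and CD14 averaged 6.73 in SKR6LR and 5.02 in SKR6. The array means of the 3 endothelial markers were 7.18 to 7.26 in SKR6LR and 5.68 to 5.82 in SKR6, and 6.66 to 6.78 in SKR6CA and 6.52 to 6.72 in SKR6-Vector. Those of the 3 measured leukocyte markers were 5.44 to 5.53 in SKR6LR and 4.80 to 4.97 in SKR6, while the 5 fibroblast markers averaged 5.17 to 5.33 in SKR6LR and 5.27 to 5.35 in SKR6. PECAM1 averaged 6.14 in SKR6LR and 6.16 in SKR6, and PTPRC 4.22 in SKR6LR and 4.16 in SKR6. The part of these differences in the results below was not tested. RELA was not called between SKR6CA and SKR6-Vector (log2 difference -0.056, SE 0.094), and the sources used here do not say whether its probe set reads the transgene, so it checks nothing about the line.

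Active p65 came with higher RNA for both arms. Of the 23 ATF4-arm genes, 10 were called higher in SKR6CA than in SKR6-Vector at an adjusted p under 0.05 in limma, against 11.7% of all genes, and 1 was called lower, against 14.9% of all genes. The ER chaperone arm had 9 of 13 genes higher and 0 lower, and all 13 differences lay above 0. The median log2 difference was 0.29 in the ATF4 arm and 0.27 in the ER chaperone arm, beside 0.0033 over all genes. With 1 array left out, the ATF4-arm genes called higher numbered between 5 (without SKR6-Vector replicate 2 or SKR6CA replicate 2) and 16 (without SKR6LR replicate 1). Of all genes, 9.56% were higher without SKR6-Vector replicate 2, 9.67% without SKR6CA replicate 2 and 13.8% without SKR6LR replicate 1. Fewer cells with a transcript and less transcript in each cell cannot be told apart in such bulk RNA.

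After lapatinib selection the genes moved in both directions. In SKR6LR, 12 ATF4-arm genes were higher than in SKR6 (21.4% of all genes were) and 4 were lower (31% of all genes were). The ER chaperone arm split into 6 genes higher and 5 lower, so that 2 of its 13 genes were not called. The median difference was 0.49 in the ATF4 arm and 0.17 in the ER chaperone arm, beside -0.058 over all genes. The direction of calls over all genes depends on the scaling here: 40.8% of the calls were higher as deposited and 51.4% after cyclic loess, under which the ATF4 arm had 14 higher and 3 lower and the ER chaperone arm 7 higher and 4 lower. After cyclic loess 26.4% of all genes were higher and 24.9% lower.

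The vector line itself differed from SKR6. SKR6-Vector had 4 ATF4-arm genes higher and 3 lower than SKR6, with 12.2% of all genes higher and 13.4% lower, and 3 ER-arm genes higher and 1 lower. Without SKR6LR replicate 1 or 2 this comparison had 12 or 11 calls in the ATF4 arm in place of 7, and without SKR6LR replicate 2 it had 7 in the ER chaperone arm in place of 4. The shares of all genes rose too, to 14.4% higher and 15.9% lower without replicate 1 and 14.5% and 16.4% without replicate 2. Set against SKR6 instead of the vector line, SKR6CA had 12 ATF4-arm genes higher and 1 lower, with 9.97% of all genes higher and 14.4% lower, and 9 ER-arm genes higher and 0 lower. These were not all the same genes. Higher against both controls were 6 ATF4-arm genes (ATF3, DDIT3, CHAC1, SLC7A11, SLC7A5, PPP1R15A) and 7 ER-arm genes (HSPA5, HSP90B1, HERPUD1, PDIA4, CALR, ERN1, EIF2AK3). In the ATF4 arm, 4 genes were higher only against SKR6-Vector and 6 only against SKR6. The same was not counted over all genes. These comparisons share arrays with one another, so their values are given side by side below.

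**Figure D1:**
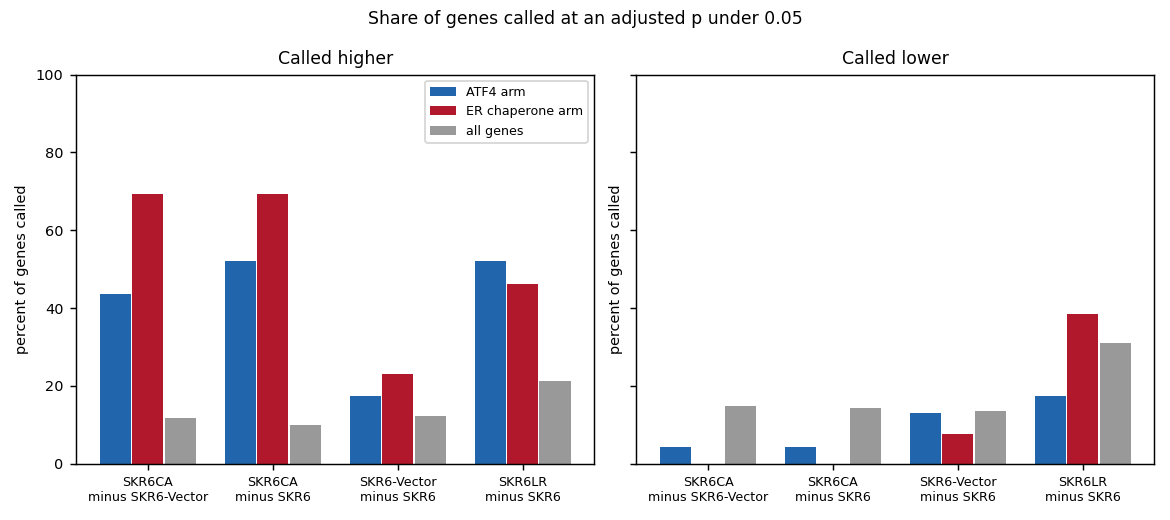
Percent of genes called higher (left panel) or lower (right panel) at an adjusted p under 0.05 for the 23 ATF4-arm genes, the 13 ER chaperone arm genes and all 19775 genes, in 4 comparisons on the horizontal axis. With active p65, 9 of 13 ER-arm genes were higher and 0 lower, while in SKR6LR 6 were higher and 5 lower.

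The promoters of the ATF4 arm were searched for the C/EBP-ATF element, the composite sequence through which ATF4 with a C/EBP partner acts on stress genes, written TGATGNAA and read on both strands. RefSeq promoters of assembly GRCh38.p14 (250 bases before to 50 after each start) were found for 33 of the 36 genes, 20 in the ATF4 arm and all 13 in the ER chaperone arm, 48 promoters in all. The element was present in 5 ATF4-arm genes (ASNS, ATF3, CHAC1, SLC1A5, SLC3A2) and in HERPUD1, and in 4.46% of all 27305 genes with promoters of that length. The NF-kB element searched (GGGA, 1 base, TTTCC) lay in 0 of the 33 genes and in 0.678% of all genes with a promoter. A match is a description of letters and not of binding. The promoters of the 4 of these ATF4-arm genes with the largest differences in SKR6LR are printed 5′ to 3′ on the strand of the gene, with the element in capitals, because ATF3, ASNS and CHAC1 rose in SKR6LR and SLC1A5 fell there. The ATF3 stretch (chr1:212565157-212565456, plus strand) and the SLC1A5 stretch (chr19:46784765-46785064, minus strand) belong to 1 of several annotated starts of their genes. ASNS lies at chr7:97872359-97872658 on the minus strand and CHAC1 at chr15:40953221-40953520 on the plus strand. The element began 191 bases before the start in ATF3, 68 in ASNS, 209 in CHAC1 and 97 in SLC1A5.
ATF3: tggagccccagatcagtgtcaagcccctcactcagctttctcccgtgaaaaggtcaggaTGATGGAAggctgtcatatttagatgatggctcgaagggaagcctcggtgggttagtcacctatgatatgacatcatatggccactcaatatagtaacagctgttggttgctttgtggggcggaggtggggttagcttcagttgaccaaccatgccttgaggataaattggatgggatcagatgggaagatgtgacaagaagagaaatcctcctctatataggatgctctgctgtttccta
ASNS: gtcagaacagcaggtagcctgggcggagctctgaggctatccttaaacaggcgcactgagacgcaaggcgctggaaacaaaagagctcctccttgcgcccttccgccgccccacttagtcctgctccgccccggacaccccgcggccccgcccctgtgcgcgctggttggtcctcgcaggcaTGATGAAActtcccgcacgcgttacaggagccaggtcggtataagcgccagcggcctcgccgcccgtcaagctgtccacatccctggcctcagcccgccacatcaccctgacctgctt
CHAC1: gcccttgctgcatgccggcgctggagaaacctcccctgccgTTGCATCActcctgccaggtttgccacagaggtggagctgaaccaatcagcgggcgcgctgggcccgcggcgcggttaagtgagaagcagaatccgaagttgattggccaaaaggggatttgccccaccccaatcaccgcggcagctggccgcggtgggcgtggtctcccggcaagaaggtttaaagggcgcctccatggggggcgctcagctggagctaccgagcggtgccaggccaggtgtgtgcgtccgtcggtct
SLC1A5: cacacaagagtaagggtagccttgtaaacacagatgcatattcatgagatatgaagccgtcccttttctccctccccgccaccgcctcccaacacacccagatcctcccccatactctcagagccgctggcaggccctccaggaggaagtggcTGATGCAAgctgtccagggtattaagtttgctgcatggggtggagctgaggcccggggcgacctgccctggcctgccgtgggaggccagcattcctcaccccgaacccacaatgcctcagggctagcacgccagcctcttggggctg

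The transcription factors of the ATF4 arm were led by ATF3. ATF4 itself, the activator of the arm, read 12.75, 12.71 and 12.63 in SKR6CA against 12.31, 12.29 and 12.33 in SKR6-Vector, and 12.62, 13.21 and 12.83 in SKR6LR against 12.36, 12.34 and 12.39 in SKR6. Its RNA was thus higher on every array of both tested lines, by 0.39 (SE 0.11, adjusted p = 0.0230) in SKR6CA and by 0.52 (SE 0.11, adjusted p = 0.00162) in SKR6LR. Against SKR6 the SKR6CA difference was 0.33 (SE 0.11, adjusted p = 0.0506), just short of a call. The call of ATF4 in SKR6CA against SKR6-Vector was lost without any 1 SKR6-Vector array or without SKR6CA replicate 1 or 2, with differences of 0.36 to 0.42 over all alternatives.

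ATF3, a stress-induced repressor and activator, read 9.88, 10.05 and 9.90 in SKR6CA against 9.54, 9.31 and 9.42 in SKR6-Vector. The SKR6LR arrays read 9.85, 10.57 and 10.24, against 7.97, 8.05 and 8.16 in SKR6. The vector line already stood 1.36 above SKR6, so SKR6CA exceeded SKR6-Vector by 0.52 (SE 0.14, adjusted p = 0.0159) but SKR6 by 1.89 (SE 0.14, adjusted p = 1.62e-06). SKR6LR exceeded SKR6 by 2.16 (SE 0.14, adjusted p = 4.17e-08), a 4.47-fold rise. These sizes rest on the brightest of 3 ATF3 probe sets, at a mean of 9.41. The set at 7.25 gave 0.75 in SKR6LR against SKR6 and 0.57 in SKR6-Vector against SKR6, and the set at 6.04 gave 0.20 and 0.091; of these only the 0.75 was called. The other ATF3 sets gave 0.22 and 0.38 in SKR6CA against SKR6-Vector, and with the mean of the probe sets ATF3 lost this call (log2 difference 0.37).

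DDIT3 (CHOP), the pro-apoptotic factor that ATF4 induces, read 8.69, 8.74 and 8.73 in SKR6CA against 8.23, 8.19 and 8.22 in SKR6-Vector. Those arrays did not overlap, and the difference was 0.51 (SE 0.10, adjusted p = 0.00287). Its SKR6LR values were 8.26, 8.79 and 8.52, against 8.22, 8.36 and 8.35 in SKR6. The lowest SKR6LR array lay within the SKR6 range, and the difference of 0.21 (SE 0.10, adjusted p = 0.109) was not called. CEBPB, a C/EBP partner of ATF4, differed by 0.16 (SE 0.058, adjusted p = 0.0670) in SKR6CA against SKR6-Vector and by -0.098 (SE 0.058, adjusted p = 0.182) in SKR6LR, neither called.

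Among the feedback and stress effectors, PPP1R15A and CHAC1 were called higher in both lines. PPP1R15A (GADD34), which brings the phosphatase that restores translation, read 7.80, 8.03 and 7.81 in SKR6CA against 7.12, 7.04 and 7.19 in SKR6-Vector. It reached 8.74, 9.28 and 8.56 in SKR6LR, against 7.23, 7.13 and 7.07 in SKR6. Every array of the tested lines was above its controls, by 0.76 (SE 0.14, adjusted p = 0.00161) in SKR6CA and 1.72 (SE 0.14, adjusted p = 4.26e-07) in SKR6LR. CHAC1, an enzyme that breaks down glutathione, read 6.98, 6.95 and 6.998 in SKR6CA against 6.09, 5.96 and 6.13 in SKR6-Vector, and 6.66, 8.27 and 6.98 in SKR6LR against 6.29, 5.92 and 5.77 in SKR6. It rose by 0.92 (SE 0.31, adjusted p = 0.0433) in SKR6CA and by 1.31 (SE 0.31, adjusted p = 0.00267) in SKR6LR. The SKR6CA call of CHAC1 was lost under 9 of 20 alternatives, among them the replicate block and each of the SKR6CA and SKR6-Vector arrays left out (adjusted p up to 0.117). The SKR6LR value leaned on replicate 2: without it the difference was 0.83, still called, and without replicate 1 it was 1.64.

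TRIB3, a pseudokinase that restrains ATF4, was called in opposite directions. It read 11.99, 11.99 and 12.01 in SKR6CA against 11.78, 11.77 and 11.75 in SKR6-Vector, a difference of 0.23 (SE 0.073, adjusted p = 0.0354). The gene read 11.53, 11.84 and 11.79 in SKR6LR, against 12.11, 12.12 and 12.10 in SKR6, a difference of -0.39 (SE 0.073, adjusted p = 0.000530). The SKR6CA call was lost under 10 of 20 alternatives, including cyclic loess and each of the SKR6CA, SKR6-Vector and SKR6 arrays left out (adjusted p up to 0.0977). The vector line was itself -0.34 from SKR6, and SKR6CA against SKR6 was not called (-0.11). A second TRIB3 probe set, at a mean of 7.69, gave 0.53 in SKR6CA against SKR6-Vector and -0.51 in SKR6LR, both called. That set gave -0.43 in SKR6-Vector against SKR6 and 0.091 in SKR6CA against SKR6, neither called. DDIT4 (REDD1), an inhibitor of mTORC1, was high in both retroviral lines. It read 13.15, 13.13 and 13.14 in SKR6CA and 13.55, 13.51 and 13.55 in SKR6-Vector, both far above the 11.56, 11.56 and 11.62 of SKR6. SKR6-Vector exceeded SKR6 by 1.96 (SE 0.28, adjusted p = 0.000257), and SKR6CA differed from SKR6-Vector by -0.40 (SE 0.28, adjusted p = 0.377). The SKR6LR arrays gave 10.33, 11.98 and 11.39, so that 1 SKR6LR array lay above and 2 below the SKR6 arrays. SESN2, another brake on mTORC1, was called in none of the 4 comparisons, with 0.19 in SKR6CA against SKR6-Vector and 0.080 in SKR6LR.

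The largest difference of the 36 genes with active p65 was in an amino-acid transporter. SLC7A11 (xCT), which imports cystine for glutathione, read 9.13, 9.12 and 9.25 in SKR6CA against 7.19, 7.38 and 7.01 in SKR6-Vector. The SKR6LR arrays held 9.60, 10.55 and 10.50, against 7.62, 7.62 and 7.63 in SKR6. It rose 3.93-fold with active p65 (log2 difference 1.98, SE 0.20, adjusted p = 1.24e-05) and 6.05-fold in SKR6LR (2.60, SE 0.20, adjusted p = 1.61e-07). Against SKR6, SKR6CA was 2.92-fold higher (1.54, SE 0.20, adjusted p = 0.000123). The second SLC7A11 probe set gave 1.55 in SKR6CA against SKR6-Vector and 3.11 in SKR6LR. The dimmest of the 3 sets, at a mean of 6.02, gave 0.19 (adjusted p = 0.660 in limma over all probe sets, not called) in SKR6CA against SKR6-Vector and 1.40 (called) in SKR6LR.

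SLC3A2 (4F2hc), the heavy chain that carries SLC7A11 and SLC7A5 to the cell surface, did not follow its light chains. It read 11.11, 11.06 and 10.95 in SKR6CA against 11.66, 11.67 and 11.69 in SKR6-Vector. All SKR6CA arrays lay below all SKR6-Vector arrays, and the difference was -0.63 (SE 0.16, adjusted p = 0.0104), the 1 ATF4-arm call downward with active p65. Against SKR6, SKR6CA differed by -0.24 (SE 0.16, adjusted p = 0.342), and SKR6-Vector by 0.40 (SE 0.16, adjusted p = 0.0971), neither called. In SKR6LR it read 10.98, 11.69 and 10.86, against 11.26, 11.24 and 11.32 in SKR6: replicate 2 lay above and the other replicates below SKR6. Without replicate 2 SLC3A2 was called lower in SKR6LR (log2 difference -0.35).

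SLC7A5 (LAT1), the leucine carrier, read 12.52, 12.48 and 12.53 in SKR6CA against 11.78, 11.81 and 11.83 in SKR6-Vector, and 12.49, 12.39 and 12.32 in SKR6LR against 11.86, 11.78 and 11.82 in SKR6. It rose by 0.70 (SE 0.057, adjusted p = 2.21e-06) in SKR6CA and 0.58 (SE 0.057, adjusted p = 1.92e-06) in SKR6LR, and the vector line was not called against SKR6 (-0.012). SLC1A5 (ASCT2), the glutamine carrier, was 0.034 from SKR6-Vector in SKR6CA. It fell in SKR6LR, with 8.81, 9.53 and 8.87 against 9.77, 9.80 and 9.83 in SKR6, a difference of -0.73 (SE 0.15, adjusted p = 0.00112).

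**Figure D2:**
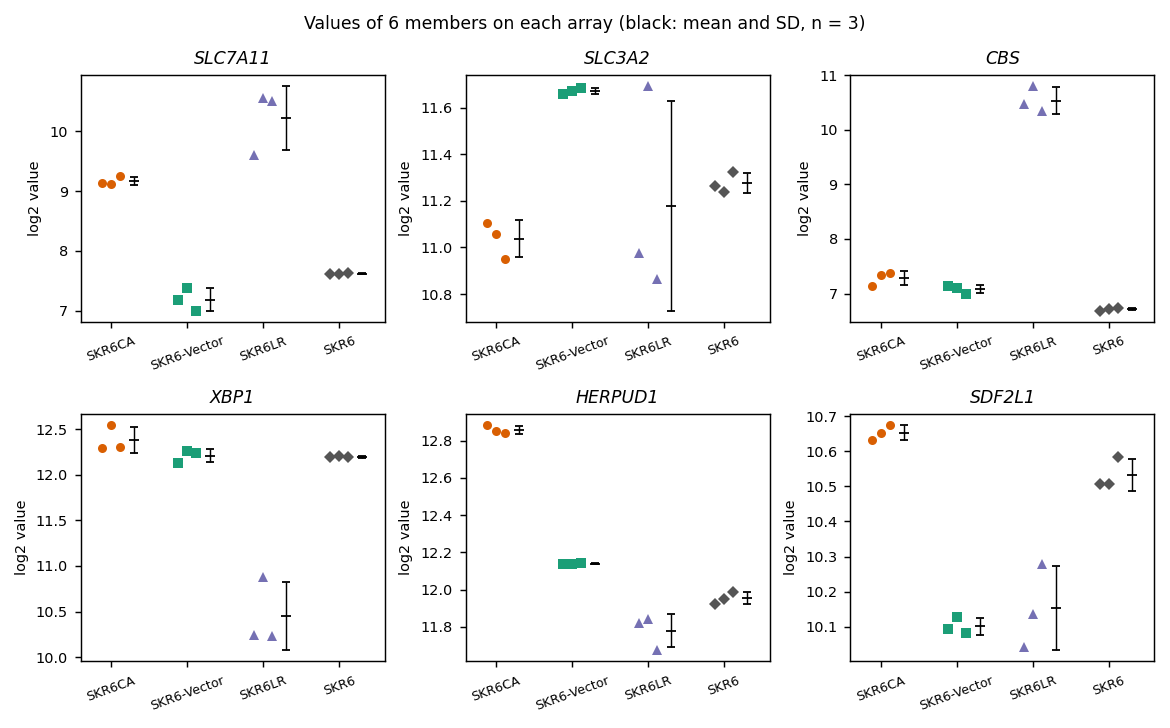
Log2 values of 6 genes on every array, with the mean and SD of each line in black (n = 3) and the lines from left to right SKR6CA, SKR6-Vector, SKR6LR and SKR6. SLC7A11 was high in SKR6CA and SKR6LR, SLC3A2 lower in SKR6CA than in SKR6-Vector, CBS high in SKR6LR, XBP1 low in SKR6LR, and HERPUD1 and SDF2L1 high in SKR6CA relative to SKR6-Vector.

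Of the 8 enzymes of amino-acid and one-carbon synthesis, 2 were called higher with active p65 (MTHFD2, SHMT2) and 0 lower, beside 11.7% and 14.9% of all genes. In SKR6LR 4 were higher (ASNS, PSAT1, CTH, CBS) and 2 lower (PHGDH, SHMT2), beside 21.4% and 31% of all genes. CBS, cystathionine beta-synthase of the pathway that makes cysteine from methionine, read 10.46, 10.80 and 10.33 in SKR6LR, against 6.69, 6.73 and 6.73 in SKR6. This 14.1-fold rise (3.82, SE 0.11, adjusted p = 9.67e-12) was the largest of any gene of the 36 in any comparison. It read 7.15, 7.34 and 7.38 in SKR6CA against 7.14, 7.10 and 6.998 in SKR6-Vector, a difference of 0.21 (SE 0.11, adjusted p = 0.191). A second probe set gave 4.18 in SKR6LR, and the dimmest one gave -0.0745.

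CTH, the next enzyme of that pathway, read 8.38, 9.36 and 9.32 in SKR6LR against 8.17, 8.10 and 8.11 in SKR6, and rose by 0.89 (SE 0.19, adjusted p = 0.00155). Replicate 1 was the lowest of the SKR6LR arrays yet above all SKR6 arrays. ASNS, asparagine synthetase, read 11.71, 12.55 and 12.41 in SKR6LR against 10.68, 10.65 and 10.63 in SKR6 (1.57, SE 0.16, adjusted p = 3.04e-06). In SKR6CA it read 11.15, 11.35 and 11.23, against 10.89, 10.78 and 10.86 in SKR6-Vector. Those arrays did not overlap, but the difference of 0.40 (SE 0.16, adjusted p = 0.0951) was not called, whereas against SKR6 it was (0.59, SE 0.16, adjusted p = 0.0187). A second ASNS probe set, at a mean of only 4.12, differed by 0.023 between SKR6CA and SKR6.

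The serine pathway did not move as a unit. PHGDH, its first enzyme, read 8.77, 9.32 and 9.02 in SKR6LR against 9.82, 9.81 and 9.86 in SKR6, and fell there (-0.80, SE 0.11, adjusted p = 3.87e-05). It read 9.05, 8.97 and 8.83 in SKR6CA and 9.25, 9.24 and 9.24 in SKR6-Vector; both retroviral lines were below SKR6, by -0.88 (SE 0.11, adjusted p = 9.94e-05) in SKR6CA and -0.58 (SE 0.11, adjusted p = 0.00163) in SKR6-Vector, and they did not differ from each other by a call (-0.29, SE 0.11, adjusted p = 0.0688). PSAT1, the second enzyme, read 11.36, 11.96 and 11.74 in SKR6LR against 10.57, 10.51 and 10.55 in SKR6, a rise of 1.14 (SE 0.12, adjusted p = 2.80e-06). In SKR6CA it was 0.34 (SE 0.12, adjusted p = 0.0534) above SKR6-Vector, short of a call, and 0.66 (SE 0.12, adjusted p = 0.00135) above SKR6. PSPH, the last enzyme, was called in none of the 4 comparisons and lay between -0.22 in SKR6-Vector against SKR6 and 0.19 in SKR6CA against SKR6-Vector. A dimmer PSPH probe set gave a called -0.47 in SKR6LR.

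The mitochondrial one-carbon enzymes SHMT2 and MTHFD2 were called higher in SKR6CA than in SKR6-Vector. MTHFD2 read 12.82, 12.91 and 12.90 in SKR6CA against 12.46, 12.49 and 12.48 in SKR6-Vector, a difference of 0.40 (SE 0.055, adjusted p = 0.000151). SKR6-Vector lay -0.38 from SKR6, and SKR6CA against SKR6 was 0.018, so the SKR6CA arrays lay close to the SKR6 arrays (12.85, 12.90 and 12.84). In SKR6LR its difference of 0.12 was not called, and with the mean of its probe sets it became -0.45, since a second set gave -1.03. SHMT2 was higher in SKR6CA (0.27, SE 0.090, adjusted p = 0.0474) and lower in SKR6LR (-0.32, SE 0.090, adjusted p = 0.00879). The SKR6CA call of SHMT2 was lost under 13 of 20 alternatives, among them the replicate block, cyclic loess and each of the SKR6CA, SKR6-Vector and SKR6 arrays left out (adjusted p up to 0.123), while a second probe set gave a called 0.46. In SKR6LR it was not called after cyclic loess or with only the compared arrays.

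STC2 and VLDLR, a secreted glycoprotein and a lipoprotein receptor induced under ER stress, completed the arm. STC2 read 6.38, 6.84 and 7.19 in SKR6LR against 5.03, 5.58 and 5.49 in SKR6, a rise of 1.44 (SE 0.18, adjusted p = 2.12e-05), and differed by 0.048 in SKR6CA. A second STC2 probe set of nearly the same mean level (5.57, against 5.69) gave a larger difference of 2.91 in SKR6LR and 0.12, not called, in SKR6CA. VLDLR read 9.67, 9.78 and 9.79 in SKR6CA against 9.31, 9.32 and 9.37 in SKR6-Vector, and both exceeded SKR6 (8.37, 8.36 and 8.49). SKR6CA exceeded SKR6 by 1.34 (SE 0.16, adjusted p = 7.83e-05) and SKR6-Vector exceeded it by 0.93 (SE 0.16, adjusted p = 0.000992), while SKR6CA against SKR6-Vector was not called (0.41, SE 0.16, adjusted p = 0.0844). In SKR6LR it read 8.50, 9.38 and 8.81, with replicate 1 just above the SKR6 arrays, and rose by 0.49 (SE 0.16, adjusted p = 0.0218), a call that was lost without SKR6 replicate 1 or 2 and with only the compared arrays.

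**Figure D3:**
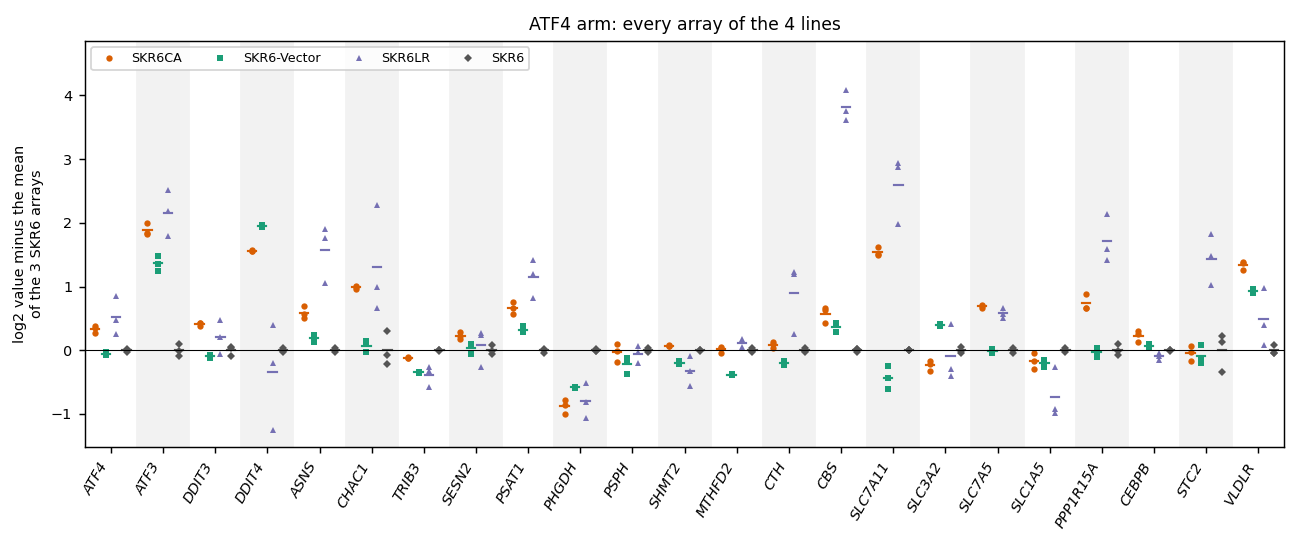
Log2 values of the 23 ATF4-arm genes on all 12 arrays, each minus the mean of the 3 SKR6 arrays; symbols are arrays and bars the means of SKR6CA, SKR6-Vector, SKR6LR and SKR6 (n = 3). CBS and SLC7A11 stood highest in SKR6LR, DDIT4 and VLDLR were raised in both retroviral lines, and the SKR6LR arrays were the most scattered.

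The promoters of the ER chaperone arm were searched for elements known from ER stress genes. Genes and elements were both chosen for this pathway, so the shares below describe them and test nothing. The ER stress response element, through which ATF6 and XBP1 act together with NF-Y, is written CCAAT, 9 bases, CCACG, and its second form is ATTGG, 1 base, CCACG. The first was found in 4 of the 13 genes (HSPA5, HSP90B1, CALR, XBP1) and in 0.0916% of all genes with a promoter, and the second in HERPUD1 and SDF2L1 and in 0.0696% of all such genes. Neither lay in the promoters of the 20 ATF4-arm genes, and the unfolded-protein element TGACGTGG lay in 0 of the 33 genes and in 0.927% of all genes with a promoter. XBP1 (chr22:28800520-28800819, minus strand) and HERPUD1 (chr16:56931892-56932191, plus strand) had the largest differences among these and are printed whole. The HERPUD1 capitals mark first the C/EBP-ATF element and then the second form of the ER element, on opposite strands. Short stretches around the element are added for HSPA5 (chr9:125241376-125241425, minus strand), SDF2L1 (chr22:21642094-21642143, plus strand) and CALR (chr19:12938368-12938417, plus strand). These 3 were chosen after their values were seen, because HSPA5 rose in both lines while SDF2L1 and CALR moved in opposite directions. The element began 52 bases before the start in XBP1, 117 in HERPUD1, 66 in HSPA5, 188 in SDF2L1 and 225 in CALR.
XBP1: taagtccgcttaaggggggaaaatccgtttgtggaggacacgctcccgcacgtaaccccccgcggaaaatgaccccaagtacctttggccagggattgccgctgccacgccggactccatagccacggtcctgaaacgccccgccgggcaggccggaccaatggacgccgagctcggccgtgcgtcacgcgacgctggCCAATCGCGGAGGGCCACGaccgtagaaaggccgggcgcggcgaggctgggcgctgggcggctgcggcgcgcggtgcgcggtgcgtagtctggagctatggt
HERPUD1: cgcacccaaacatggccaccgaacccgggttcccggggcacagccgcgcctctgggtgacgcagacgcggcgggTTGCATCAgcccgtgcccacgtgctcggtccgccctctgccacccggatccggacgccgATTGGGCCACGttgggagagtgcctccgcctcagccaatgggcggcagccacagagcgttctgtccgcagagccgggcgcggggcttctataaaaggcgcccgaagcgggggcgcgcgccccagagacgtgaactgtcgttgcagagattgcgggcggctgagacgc
HSPA5: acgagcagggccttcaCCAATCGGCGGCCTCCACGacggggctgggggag
SDF2L1: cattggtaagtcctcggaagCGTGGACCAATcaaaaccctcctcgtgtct
CALR: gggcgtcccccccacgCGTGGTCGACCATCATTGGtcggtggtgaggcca

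XBP1, the transcription factor of the arm, read 10.24, 10.88 and 10.23 in SKR6LR, against 12.19, 12.20 and 12.19 in SKR6. Every SKR6LR array was more than 1 log2 unit below every SKR6 array, a 3.35-fold fall (-1.74, SE 0.14, adjusted p = 3.22e-07). The other XBP1 probe set, at a mean of only 5.18, gave 0.16 and was not called. In SKR6CA it read 12.30, 12.54 and 12.31, against 12.13, 12.26 and 12.24 in SKR6-Vector, a difference of 0.17 (SE 0.14, adjusted p = 0.455) that was not called. The 2 effects differed by 1.92 (SE 0.20, adjusted p = 5.13e-06).

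Of the sensors, ERN1 and EIF2AK3 rose with active p65. ERN1 (IRE1) read 9.09, 9.16 and 9.22 in SKR6CA against 8.50, 8.53 and 8.47 in SKR6-Vector, and EIF2AK3 (PERK) read 10.59, 10.81 and 10.73 in SKR6CA against 9.99, 10.01 and 10.02 in SKR6-Vector. Neither pair of groups overlapped, and the rises were 0.66 (SE 0.12, adjusted p = 0.00144) for ERN1 and 0.70 (SE 0.13, adjusted p = 0.00131) for EIF2AK3. In SKR6LR they read 8.13, 8.76 and 8.48 and 10.02, 10.70 and 10.43, against 8.13, 8.33 and 8.29 and 10.23, 10.22 and 10.18 in SKR6. The SKR6LR replicates spanned more than the lines differed, and neither gene was called (0.21 for ERN1, 0.17 for EIF2AK3). A second ERN1 probe set, at a mean of 7.60, gave a called 0.33 in SKR6CA against SKR6-Vector. The dimmest sets were not called there, with 0.23 for ERN1 at a mean of 5.90 and 0.020 for EIF2AK3 at a mean of 4.04. ATF6 read 8.66, 9.03 and 8.88 in SKR6LR, against 9.63, 9.60 and 9.62 in SKR6, and fell by 0.76 (SE 0.080, adjusted p = 3.61e-06). In SKR6CA it read 9.98, 9.98 and 9.98, against 9.72, 9.82 and 9.78 in SKR6-Vector: the groups did not overlap, but 0.21 (SE 0.080, adjusted p = 0.0756) was not called, while against SKR6 the difference was 0.37 (SE 0.080, adjusted p = 0.00475). Other ATF6 probe sets gave -0.58, -0.17 and -0.14 in SKR6LR.

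HSPA5 (BiP), the ER's main Hsp70 chaperone, rose in both lines. It read 13.46, 13.59 and 13.50 in SKR6CA against 13.07, 13.04 and 13.11 in SKR6-Vector, and 13.59, 13.74 and 13.65 in SKR6LR against 13.13, 13.10 and 13.11 in SKR6. No arrays overlapped, and the rises were 0.44 (SE 0.059, adjusted p = 0.000116) in SKR6CA and 0.55 (SE 0.059, adjusted p = 4.00e-06) in SKR6LR, with no call for the vector (-0.040). A second HSPA5 probe set, at a mean of 9.01, gave 0.996 in SKR6CA against SKR6-Vector, 0.80 in SKR6LR against SKR6 and -0.47 in SKR6-Vector against SKR6, all called. With the mean of the probe sets the vector difference was -0.26 and called. HSP90B1 (GRP94), the ER's Hsp90, rose by 0.27 (SE 0.051, adjusted p = 0.00168) in SKR6CA. Its SKR6LR difference was 0.14 (SE 0.051, adjusted p = 0.0400), a call lost under 14 of 19 alternatives, among them the replicate block, median centring and each of the SKR6 arrays left out (adjusted p up to 0.264). A second HSP90B1 probe set gave 0.31 in SKR6CA and 0.040 in SKR6LR, neither called. PDIA4, a disulfide isomerase, read 11.22, 11.26 and 11.26 in SKR6CA against 10.99, 11.03 and 11.03 in SKR6-Vector, and 11.37, 11.51 and 11.52 in SKR6LR against 10.82, 10.77 and 10.80 in SKR6. It rose by 0.23 (SE 0.056, adjusted p = 0.00891) in SKR6CA and 0.67 (SE 0.056, adjusted p = 3.68e-07) in SKR6LR, but a second probe set gave 0.14 in SKR6CA and 0.095 in SKR6LR, neither called.

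DNAJB9 (ERdj4), a co-chaperone of HSPA5, was raised in every derived line. It read 11.59, 11.77 and 11.75 in SKR6CA and 11.62, 11.59 and 11.58 in SKR6-Vector, and 11.34, 11.82 and 11.70 in SKR6LR against 10.88, 10.88 and 10.82 in SKR6. SKR6-Vector exceeded SKR6 by 0.74 (SE 0.10, adjusted p = 0.000183), SKR6CA differed from SKR6-Vector by only 0.11 (SE 0.10, adjusted p = 0.538), and SKR6LR exceeded SKR6 by 0.76 (SE 0.10, adjusted p = 3.30e-05).

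SDF2L1 and CALR, a cofactor of HSPA5 and the lectin chaperone calreticulin, took opposite directions in the 2 lines. SDF2L1 read 10.63, 10.65 and 10.68 in SKR6CA against 10.09, 10.13 and 10.08 in SKR6-Vector, a rise of 0.55 (SE 0.064, adjusted p = 3.84e-05). In SKR6LR it read 10.04, 10.14 and 10.28, against 10.51, 10.51 and 10.58 in SKR6, a difference of -0.38 (SE 0.064, adjusted p = 0.000214). The result for SDF2L1 depended on the control: SKR6-Vector lay -0.43 from SKR6 (called), and SKR6CA against SKR6 was 0.12 (SE 0.064, adjusted p = 0.209). CALR read 10.46, 10.49 and 10.60 in SKR6CA against 10.29, 10.26 and 10.20 in SKR6-Vector (0.26, SE 0.061, adjusted p = 0.00610), and 9.91, 10.04 and 9.89 in SKR6LR against 10.28, 10.28 and 10.24 in SKR6 (-0.32, SE 0.061, adjusted p = 0.000581). Its other probe sets, at means of 7.18 and 10.02, gave 0.43 and 0.39 in SKR6CA against SKR6-Vector, and -0.63 and 0.095 in SKR6LR. Of these only the 0.095 was not called.

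HERPUD1, which organises ER-associated degradation, was the gene of the arm that rose most with active p65. It read 12.88, 12.85 and 12.84 in SKR6CA against 12.14, 12.14 and 12.14 in SKR6-Vector, a 1.65-fold rise (0.72, SE 0.057, adjusted p = 1.60e-06). In SKR6LR it read 11.82, 11.84 and 11.68, against 11.92, 11.95 and 11.99 in SKR6, a difference of -0.17 (SE 0.057, adjusted p = 0.0201) that was -0.019 and not called after cyclic loess. That call was also lost without SKR6 replicate 3 or SKR6LR replicate 3 and with only the compared arrays. EDEM1, a lectin of that degradation pathway, rose by 0.33 (SE 0.094, adjusted p = 0.0214) in SKR6CA and 0.26 (SE 0.094, adjusted p = 0.0341) in SKR6LR. The SKR6LR call of EDEM1 was lost under 6 of 20 alternatives: without SKR6LR replicate 2 the difference was 0.14 (adjusted p = 0.116), and it was also not called without any 1 SKR6 array, with group weights or with only the compared arrays. The SKR6CA call was lost without SKR6-Vector replicate 1 or 3 or SKR6CA replicate 3, and EDEM1 was not called in SKR6CA against SKR6 (0.12). SEL1L, the adaptor of the degradation ligase, rose in SKR6LR (0.26, SE 0.067, adjusted p = 0.00458) and differed by 0.024 in SKR6CA. Its 3 dimmer probe sets gave between -0.080 and 0.017 in SKR6LR, none called, and 1 of them gave a called -0.34 in SKR6CA.

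**Figure D4:**
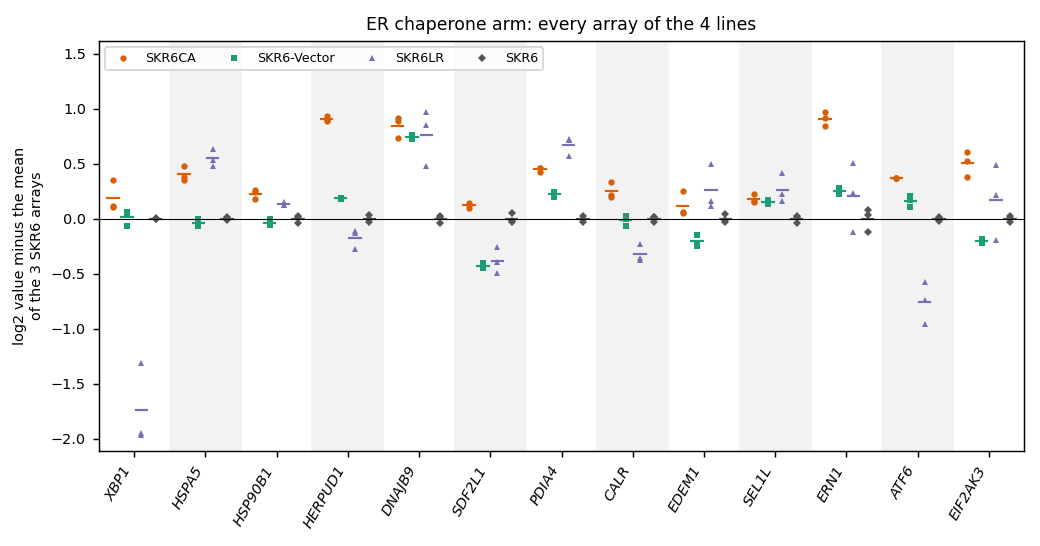
Log2 values of the 13 ER chaperone arm genes on all 12 arrays, each minus the mean of the 3 SKR6 arrays; symbols are arrays and bars the means of SKR6CA, SKR6-Vector, SKR6LR and SKR6 (n = 3). HERPUD1 and ERN1 stood highest in SKR6CA, XBP1 and ATF6 lowest in SKR6LR, and DNAJB9 was raised in SKR6CA, SKR6-Vector and SKR6LR.

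The effects of active p65 and of lapatinib selection share no arrays and were compared gene by gene. Of the 10 ATF4-arm genes that rose with active p65, 6 also rose in SKR6LR (ATF4, ATF3, CHAC1, SLC7A11, SLC7A5, PPP1R15A), where 12 rose in all. Of the 9 ER-arm genes that rose with active p65, 4 (HSPA5, HSP90B1, PDIA4, EDEM1) were among the 6 that rose in SKR6LR. Called in opposite directions were TRIB3 and SHMT2 in the ATF4 arm and HERPUD1, SDF2L1 and CALR in the ER chaperone arm, each higher in SKR6CA and lower in SKR6LR. Of these 5 genes SDF2L1 and CALR kept both calls under every alternative, while TRIB3 and SHMT2 lost the SKR6CA call and HERPUD1 and SHMT2 the SKR6LR call under some, as given above. No alternative changed the control, and SDF2L1 was not called in SKR6CA against SKR6 (0.12). A CALR probe set nearly as bright as the chosen 1 (mean 10.02, against 10.25) gave 0.095 in SKR6LR, not called. Of the 10 genes called higher in both lines, SLC7A11, SLC7A5, PPP1R15A and HSPA5 kept both calls under every alternative, and ATF4, ATF3, CHAC1, HSP90B1, PDIA4 and EDEM1 did not. How often genes higher with active p65 were also higher, or lower, in SKR6LR was not counted over all genes. Of all genes, 21.4% were higher and 31% lower in SKR6LR than in SKR6. Whether these overlaps are particular to the arms was therefore not tested. When the difference between the effects was tested, active p65 minus lapatinib selection, 6 ATF4-arm genes were higher and 6 lower, while 25.6% of all genes were higher and 19.8% lower. In the ER chaperone arm 6 were higher and 2 lower. Over all genes 56.4% of these calls were higher as deposited and 46.1% after cyclic loess, under which the ATF4 arm had 3 higher and 9 lower and the ER chaperone arm 5 higher and 4 lower. After cyclic loess 20.6% of all genes were higher and 24.0% lower by this test. The effects on SLC7A11 differed by -0.62 (SE 0.28, adjusted p = 0.0925), those on HSPA5 by -0.11 (SE 0.083, adjusted p = 0.344) and those on ATF4 by -0.14 (SE 0.16, adjusted p = 0.539), none of them called.

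**Figure D5:**
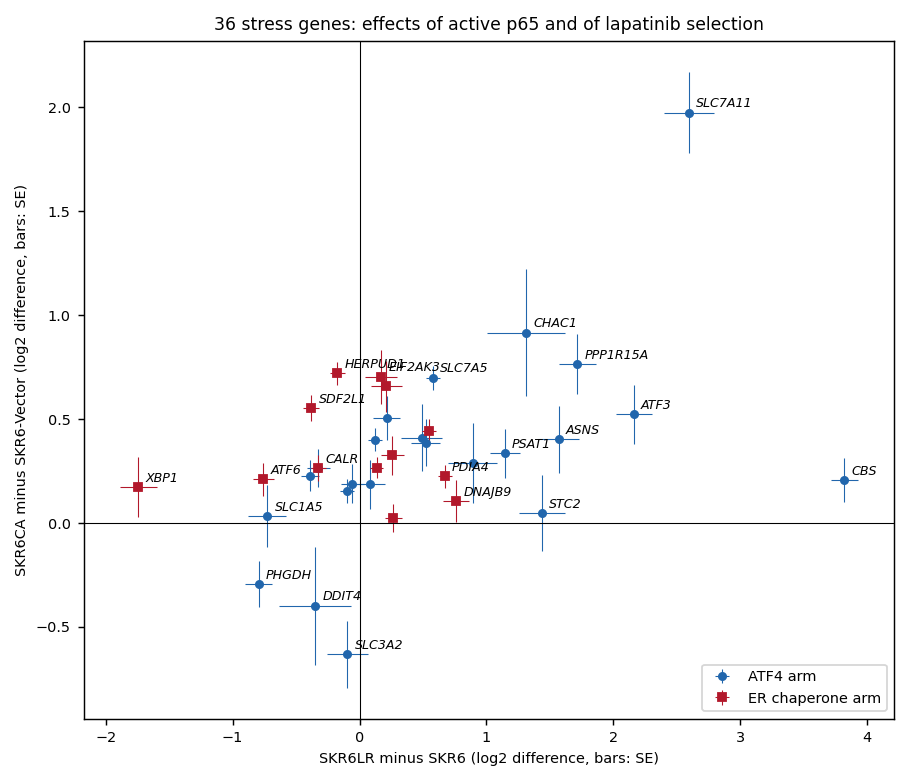
Log2 difference of SKR6CA minus SKR6-Vector (vertical axis) against that of SKR6LR minus SKR6 (horizontal axis) for the 36 genes, with bars of 1 SE; circles are the ATF4 arm and squares the ER chaperone arm. SLC7A11 lies high on both axes, CBS only far to the right, and XBP1 and ATF6 to the left with small values on the vertical axis.

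The SKR6LR cultures differed among themselves in these genes. Replicate 2 held the highest of the SKR6LR values in 19 of 23 ATF4-arm genes (82.6%) and in 11 of 13 ER-arm genes (84.6%), against 34.3% of all genes. Replicate 1 held the lowest in 18 of 23 (78.3%) and 9 of 13 (69.2%), against 37.5% of all genes. The median SD within SKR6LR was 0.305 in the ATF4 arm and 0.133 in the ER chaperone arm, beside 0.122 over all genes, while in the other lines it was between 0.0328 and 0.0722 in the ATF4 arm. DDIT4 spanned 1.66 and CHAC1 1.62 over the SKR6LR arrays, whereas CBS spanned 0.47 and HSPA5 0.16. The actin 3′ minus 5′ difference was 1.19 in replicate 1, 1.03 in replicate 2 and 2.32 in replicate 3, and its part in this was not tested. Without replicate 1 the SKR6LR values of DDIT3 (0.35), SESN2 (0.26), ERN1 (0.37) and EIF2AK3 (0.35) were called higher, and without replicate 2 that of DDIT4 was called lower (-0.73). In SKR6CA, replicate 1 held the lowest value in 11 of 13 ER-arm genes (84.6%) and 12 of 23 ATF4-arm genes (52.2%), against 31.9% of all genes.

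Because each gene's spread was pooled over all lines, the scatter within SKR6LR also weighed on the comparison of SKR6CA with SKR6-Vector. With only the 6 arrays of these lines, 15 ATF4-arm genes were higher and 3 lower, against 15.1% and 18.4% of all genes, and 10 ER-arm genes were higher. ASNS, PSAT1, CTH, SESN2, VLDLR and ATF6 were then called higher, and DDIT4 and PHGDH lower. Without 1 SKR6-Vector array or without SKR6CA replicate 2, 6 or 7 ATF4-arm genes were called in place of 11, beside 9.36% to 9.67% of all genes higher and 12.2% to 13.1% lower. Without SKR6LR replicate 1 or 2 the count was 19 or 17, beside 13.8% or 14.1% of all genes higher and 17.2% or 17.5% lower. Called under every alternative were DDIT3, MTHFD2, SLC7A11, SLC7A5, PPP1R15A and SLC3A2 in the ATF4 arm and HSPA5, HSP90B1, HERPUD1, SDF2L1, CALR, ERN1 and EIF2AK3 in the ER chaperone arm.

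Genes of the same pathways outside the 36 were counted from lists of 44 and 36 genes. Of the ATF4-pathway list, 42 were measured, and with active p65 10 were higher and 3 lower (23.8% and 7.14%, beside 11.7% and 14.9% of all genes), led by CLIC4 (0.71), YARS1 (0.64), TARS1 (0.50) and SLC7A1 (0.46). YARS1 and TARS1 charge tRNAs and SLC7A1 imports arginine and lysine. In SKR6LR 19 were higher and 9 lower (45.2% and 21.4%, beside 21.4% and 31% of all genes), led by the cytokine GDF15 (4.01), CLIC4 (2.11), the tRNA synthetase WARS1 (1.65) and the histone demethylase KDM7A (-1.57). GDF15 was 2.91 higher in SKR6-Vector than in SKR6 as well. In SKR6-Vector 4 of the 42 were higher and 6 lower than in SKR6 (9.52% and 14.3%), near the 12.2% and 13.4% of all genes. In SKR6CA against SKR6 10 were higher and 8 lower (23.8% and 19.0%, beside 9.97% and 14.4% of all genes).

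Of the ER list, 34 were measured, and with active p65 13 were higher and 2 lower (38.2% and 5.88%, beside 11.7% and 14.9% of all genes). BHLHA15 (MIST1), a transcription factor of secretory cells, led with 3.29 (SE 0.084), followed by the COPII coat gene SEC24D (0.91) and the chaperones HYOU1 (0.52) and DNAJC3 (0.45). In BHLHA15 the vector line itself lay -1.20 from SKR6, which was called, and SKR6CA exceeded SKR6 by 2.09. In SKR6LR 9 were higher and 20 lower (26.5% and 58.8%, beside 21.4% and 31% of all genes). There CREBRF, a regulator of CREB3, was higher (1.61), as was the ER oxidase ERO1A (1.29), while its relative ERO1B (-1.22) and DNAJC3 (-1.02) were lower. SKR6-Vector had 6 higher and 4 lower than SKR6 (17.6% and 11.8%, beside 12.2% and 13.4% of all genes). SKR6CA had 16 higher and 0 lower than SKR6 at an adjusted p in limma (47.1% higher, beside 9.97% of all genes), with 18 higher and 2 lower at an unadjusted p under 0.05.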

How the data were processed

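Total RNA of 12 cultures was labelled with biotin after T7 amplification from oligo-dT and hybridised to 3′ expression arrays of 54675 probe sets, per the labels' protocols. The deposited values are log2 values; RMA and limma are named in the submitters' processing notes, with versions, parameters and the scanner steps not given in the sources used here. Values ran from 3.00 to 15.28 and array medians from 5.74 to 5.77. Precision is limited by the number of arrays, 3 for each line. RMA compresses small differences near the background.

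Of 42898 annotated probe sets (platform annotation of 2016), 41097 named 1 gene and 1801 several, and 11777 were unnamed here; 41043 of the single-gene sets matched a RefSeq gene ID and 54 kept the older symbol. One model in limma 3.58.1 (R 4.3.3, lmFit and eBayes) gave each line a mean over all 12 arrays, with adjustment by Benjamini and Hochberg over 19775 genes and a call at 0.05. The differences between effects came from the same model. P-values measure the spread between cultures, and the labels do not say whether the replicates were derived apart. The model was tested on simulated data with 1 spread per gene shared by all lines and changes in SKR6CA only. That setting cannot show how the wider spread of SKR6LR acts on the calls. The genes named are the 36, up to 4 called genes per comparison from each list of other pathway genes, and RELA, ERBB2 and the cell type markers. The members and lists were chosen with earlier results of these data known. Alternatives were the replicate block, each array left out, cyclic loess, median centring, group weights, only the compared arrays, a low-value filter (line mean of at least 6 in 1 line), the mean of probe sets, and no _x_at or _s_at probe sets. Promoters come from RefSeq, GRCh38.p14.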

Additional observations from a re-analysis of the deposited data

Results flagged for a closer look

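For 20 of the 36 genes the effect of active p65 (SKR6CA minus SKR6-Vector) and that of lapatinib selection (SKR6LR minus SKR6) differed by the test of the difference itself in limma, at an adjusted p under 0.05. The value given is the first effect minus the second, on the log2 scale. Of the 36 genes 33.3% were higher and 22.2% lower by this test, beside 25.6% and 19.8% of all genes. In the ATF4 arm it was negative for CBS (-3.61), ATF3 (-1.64), STC2 (-1.39), ASNS (-1.17), PPP1R15A (-0.95) and PSAT1 (-0.81). It was positive for SLC1A5 (0.76), TRIB3 (0.62), SHMT2 (0.59), PHGDH (0.50), MTHFD2 (0.28) and CEBPB (0.25). In the ER chaperone arm it was positive for XBP1 (1.92), ATF6 (0.97), SDF2L1 (0.93), HERPUD1 (0.89), CALR (0.59) and EIF2AK3 (0.53), and negative for DNAJB9 (-0.66) and PDIA4 (-0.45). ATF3 and PPP1R15A rose in both lines against their own controls, so their difference is one of size. Because the controls differ, a shift of SKR6-Vector from SKR6 enters each value. That shift was 1.36 for ATF3, 0.74 for DNAJB9 and -0.38 for MTHFD2, all called, and -0.029 for PPP1R15A, not called. Against SKR6, ATF3 was 1.89 higher in SKR6CA and 2.16 higher in SKR6LR, and DNAJB9 0.85 and 0.76 higher. MTHFD2 was not called against SKR6 in either line (0.018 and 0.12). Fewest alternatives kept the EIF2AK3 call, which was lost under 9 of 19. Called under every alternative were ASNS, TRIB3, PSAT1, SHMT2, CBS, SLC1A5, PPP1R15A and STC2, and XBP1, HERPUD1, DNAJB9, SDF2L1, CALR and ATF6.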

How the results depend on the processing

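Over 20 alternatives, 3260 of 3519 gene results were counted as unchanged, 122 lost a call, 133 gained one and 4 turned direction. A turn of direction was counted only where the gene was called under either setting. The 4 were MTHFD2 in SKR6LR minus SKR6 with the mean of probe sets (-0.45), HERPUD1 in SKR6-Vector minus SKR6 with the mean of probe sets (-0.013) and without _x_at or _s_at probe sets (-0.21), and PDIA4 in the difference of effects without those probe sets (0.042). Their other probe sets disagree. The unchanged results include uncalled genes whose sign turned, such as DDIT4 in SKR6LR minus SKR6 (-0.35 as reported, 0.10 without SKR6LR replicate 1). Called ATF4-arm genes in SKR6CA minus SKR6-Vector numbered 11 as reported, 18 with group weights and 18 with only the compared arrays. Over all genes the shares called rose too, to 15.7% higher and 19.0% lower with group weights and 15.1% and 18.4% with only the compared arrays, beside 11.7% and 14.9% as reported. In SKR6-Vector minus SKR6 the ATF4 arm had 7 as reported, 12 with group weights and 15 with only the compared arrays, and the ER chaperone arm 4 as reported, 9 under either setting and 1 without _x_at or _s_at probe sets. There 17.9% of all genes were higher and 20.4% lower with group weights, and 17.5% and 19.7% with only the compared arrays, beside 12.2% and 13.4% as reported. Without those probe sets 17 ATF4-arm and 10 ER-arm genes had a value, and the calls were 7 in place of 11 for the ER chaperone arm in SKR6LR minus SKR6, and 7 in place of 13 for the ATF4 arm in SKR6CA minus SKR6. Of all genes, 19.8% were then higher and 28.3% lower in SKR6LR minus SKR6. The shares were 8.76% and 12.4% in SKR6CA minus SKR6, and 10.5% and 11.4% in SKR6-Vector minus SKR6. The setting with only the compared arrays does not apply to the difference of effects.

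With 1 array left out, the calls for SKR6CA minus SKR6-Vector ran from 6 to 19 (ATF4 arm) and 8 to 10 (ER chaperone arm). They ran from 15 to 19 and 8 to 13 for SKR6LR minus SKR6, 6 to 12 and 3 to 7 for SKR6-Vector minus SKR6, 10 to 15 and 8 to 10 for SKR6CA minus SKR6, and 11 to 16 and 7 to 9 for the difference of effects. 

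The deviations of same-numbered replicates of different lines correlated at r between -0.034 and 0.095. Those of differently numbered replicates correlated at r between -0.121 and 0.092. Such values cannot show that no batch or culture day was shared, so whether the numbers pair the samples was not settled. With the replicate block the ATF4 arm had 9 higher and 1 lower in SKR6CA minus SKR6-Vector, where CHAC1 and SHMT2 lost and PSAT1 gained a call, and 12 higher and 4 lower in SKR6LR minus SKR6. The ER chaperone arm had 9 higher and 0 lower in SKR6CA minus SKR6-Vector and 5 higher and 5 lower in SKR6LR minus SKR6. Of all genes, 11.3% were higher and 14.5% lower with the block in SKR6CA minus SKR6-Vector. In SKR6LR minus SKR6 the shares were 21.3% and 30.5%. In all, 174 of 180 gene results were counted as unchanged with the replicate block.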
